A study of Mus musculus with 36 samples.

Results

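Reactive astrocyte genes were followed through RNA-seq of the brain in a mouse model of classic late infantile neuronal ceroid lipofuscinosis, a lysosomal storage disease in which the protease TPP1 is missing. The set held 10 genes, Gfap, Vim, Serpina3n, Cd44, Osmr, S1pr3, Steap4, Lcn2, Hspb1 and Aspg, of the 53274 genes counted at all ages. They were found in the tables by gene name, and all 10 passed the filter on low counts at each age. RNA came from forebrain with midbrain (F/M) and from cerebellum (Cb) of Tpp1-/- mice and control siblings of 1, 2 and 3 months, with 3 mice in each of the 12 groups and 36 libraries in all. Within an age and genotype, libraries that share a replicate number across the regions also share sex and genotype labels, and whether they came from 1 mouse is not stated in the labels. Tpp1 had been disrupted by gene targeting, and the line was kept by crossing Tpp1+/- mice. The controls were wild type, except that control replicate 3 of 1 month was Tpp1+/- in both regions. At 1 month each group held 1 female and 2 males, at 2 months all mice were male, and at 3 months each group held 2 males and 1 female.

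Astrocytes respond to injury and disease by a change of state called reactivity, in which they enlarge, build more intermediate filament and secrete acute phase proteins. Cytokines of the IL-6 family acting through the oncostatin M receptor and STAT3 are a known route into that state, and cytokines and complement from activated microglia are another. Genes that rise in most kinds of reactivity are called pan-reactive, and the 10 genes are commonly used as such markers.

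The libraries held 10609896 to 29942380 reads counted on genes. Levels are CPM, the count of a gene relative to the library's total, scaled by TMM, a method that sets the libraries of one age on a common scale, and errors are the SD of 3 mice. Tpp1 reads were lower in each Tpp1-/- group than in its controls, at 16.1 to 27.8 CPM against 42.1 to 111. A gene is said to be called where edgeR's quasi-likelihood test gave an adjusted p (Benjamini-Hochberg, over all genes tested) under 0.1 together with a difference of 1.5-fold or more, up or down. With 3 mice against 3, an exact permutation test of a single gene could not go below p = 0.1. No pair of replicates agreed within sampling noise. In Cb of 3 months Tpp1-/- replicate 1 and control replicate 3 differed from their own groups, with a chi-square per gene of 62.9 and 76.7 against the other Tpp1-/- mice and of 35.1 and 40.8 against the other controls, where the other mice of each group differed by 2.95 and 2.18. Both were high in choroid plexus genes, and the members' results of 3 months are given with and without them. In Cb of 1 month Tpp1-/- replicate 1 stood apart less (43.7 and 45.5, beside 17.4), and no member was called there without it. The Cb libraries of Tpp1-/- mice at 2 months stood apart by low levels of midbrain and thalamus genes, which are given beside the results of that age. Each age was counted with its own annotation release and strand setting, so levels of different ages are given side by side, and only the Tpp1-/- effect within an age was compared between ages. Astrocyte markers such as Aldh1l1, Aqp4 and Slc1a2 were present in all libraries. In no group was any of the 14 on the list at or under 3 counts in every library.

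Without the mutation, the members spanned a wide range of levels, and several of them differed between the regions. In CPM per kb of exon, which allows genes of different length to be compared, Gfap, the main intermediate filament protein of astrocytes, was the highest member in both regions at every age. Its control group means were 40.8 to 45.5 CPM per kb in F/M and 38.5 to 42.4 in Cb. Vim, a second filament protein that is also made by endothelium and by Bergmann glia, the radial astrocytes of the cerebellum, came next in Cb at 28.7 to 32.1 CPM per kb. In F/M it stood at 6.64 to 8.46, and its place in the order changed between ages with that of Serpina3n, a secreted inhibitor of serine proteases, at 6.17 to 9.66. S1pr3, a receptor for the lipid sphingosine 1-phosphate, ranked below them in F/M, at 2.05 to 2.31 CPM per kb. Cd44, Hspb1 and Aspg exchanged places between ages in F/M, and Osmr and Lcn2 did so as well. Steap4 was lowest in both regions, at 0.156 to 0.183 in F/M and 0.112 to 0.328 in Cb.

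Control Cb was compared with control F/M within each age, where 36.9%, 39.3% and 37.7% of all genes tested were called at 1, 2 and 3 months. Of the 10 members, 3, 6 and 4 were called, a share of the set near that of all genes at 1 and 3 months and above it at 2 months. Vim was higher in Cb at each age, with log2 fold changes of 1.95 ± 0.13, 1.92 ± 0.09 and 2.27 ± 0.17 (SE; adjusted p = 4.15e-09, 1.72e-12 and 6.07e-08). Control libraries held 31.0 to 45.3 CPM of Vim in F/M and 123 to 200.2 in Cb, without overlap. Serpina3n ran the other way and was lower in Cb by 2.08 ± 0.18, 2.05 ± 0.12 and 2.28 ± 0.23 on the log2 scale. All 9 control libraries of Cb lay below all 9 of F/M for Serpina3n, at 2.37 to 5.52 against 10.4 to 21.3 CPM. S1pr3 was also lower in Cb, with log2 fold changes of -1.05, -1.11 and -1.33. Cd44, the hyaluronan receptor, was higher in Cb at 2 and 3 months, by 0.61 and 0.70 on the log2 scale, and its difference at 1 month was 0.48, below the fold minimum. Aspg, an asparaginase, was lower in Cb at 2 months (-1.21), and Steap4, a metalloreductase, was higher (1.04). Gfap, Osmr, Lcn2 and Hspb1 were called at no age. Left out singly, control replicate 2 of Cb or replicate 3 of F/M took Cd44 at 2 months to log2 fold changes of 0.51 and 0.49, below the fold minimum, and control replicate 1 of Cb or of F/M took Steap4 to adjusted p of 0.203 and 0.121. At 1 month Cd44 was called without control replicate 3 of Cb, the Tpp1+/- mouse (log2 fold change 0.60), and Hspb1 without control replicate 2 of Cb or replicate 3 of F/M (adjusted p = 0.0712 and 0.0810). Lcn2 at 2 months was called without control replicate 1 of Cb or replicate 2 of F/M (adjusted p = 0.0464 and 0.0189), and Steap4 at 3 months without Tpp1-/- replicate 1 of Cb or control replicate 2 of F/M (0.0972 and 0.0957).

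**Figure D1:**
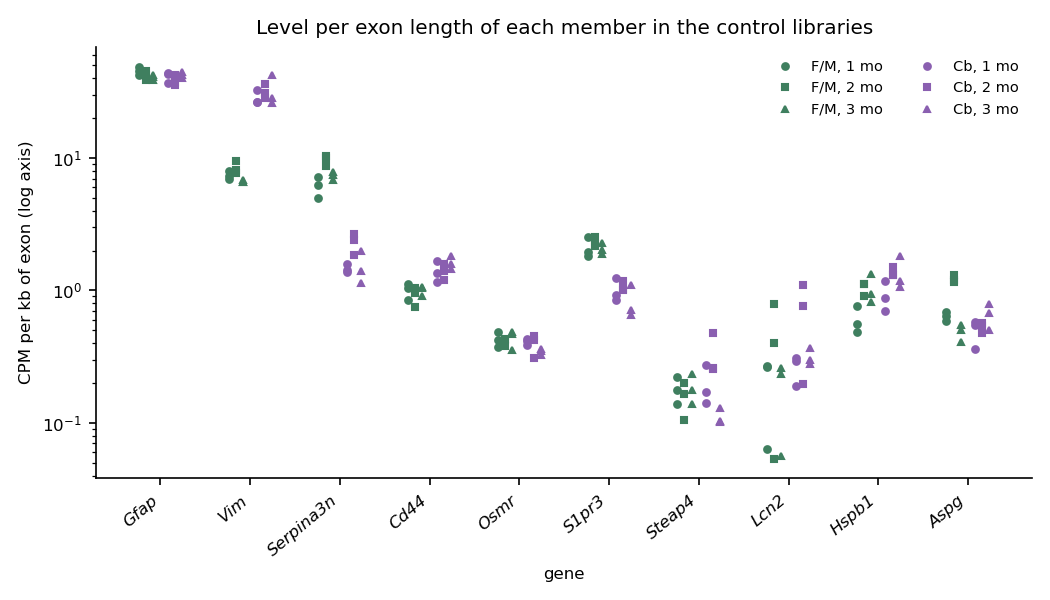
Level of each member in CPM per kb of exon (log axis) in the 18 control libraries, 1 point per library, with the region in colour and the age by symbol. Gfap lies at the top in both regions, Vim is higher in Cb and Serpina3n and S1pr3 are higher in F/M.

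At 3 months, when Tpp1-/- mice show motor signs, Gfap and Serpina3n were higher than in controls in both regions, and Cd44 and Osmr were higher in Cb. In Cb 4 of the 10 members were called, all higher, against 0.859% of all 17224 genes tested (0.673% called higher). In F/M 2 members were called, both higher, against 0.464% of all genes (0.412% called higher). All 10 members had a log2 fold change above 0 in Cb, as had 49.2% of all genes, with a median of 0.75 beside -0.00271 over all genes tested. In F/M 8 of 10 were above 0, beside 49.2% of all genes, with a median of 0.23 beside -0.00264. The Tpp1-/- and control mice did not overlap for 7 members in Cb, where that held for 8.67% of all genes, and for 6 members in F/M, where it held for 24.1%.

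Gfap (ENSMUSG00000020932, chromosome 11, 102887336 to 102900912, minus strand of GRCm38) had the lowest adjusted p of the members in both regions. In F/M the controls of 3 months held 172, 179 and 165 CPM and the Tpp1-/- mice 448, 497 and 426 CPM. Cb controls held 188, 180.0 and 169 CPM and Cb of Tpp1-/- mice 726, 514 and 585 CPM. Every Tpp1-/- mouse was above every control in both regions, and the spread between Tpp1-/- mice was larger in Cb than in F/M. The fold change was 2.66 in F/M (95% interval 2.23 to 3.17, adjusted p = 3.56e-05) and 3.40 in Cb (2.85 to 4.06, adjusted p = 2.82e-06). Vim (ENSMUSG00000026728, chromosome 2, 13573927 to 13582826, plus strand), whose protein forms filaments together with GFAP, was called in neither region. Its Cb levels were 123, 134 and 200.2 CPM in controls and 194, 149 and 141 CPM in Tpp1-/- mice, which overlapped, with a log2 fold change of 0.09 (95% interval -0.26 to 0.43). The F/M levels of Vim were 32.4, 31.0 and 31.0 CPM against 37.1, 34.0 and 35.9 CPM. These groups did not overlap, but the log2 fold change was 0.18 (-0.18 to 0.54) and did not pass the test.

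Serpina3n (ENSMUSG00000021091, chromosome 12, 104406729 to 104414329, plus strand), the mouse acute phase serpin, had the largest fold change of the members in Cb. Its F/M levels were 15.3, 16.1 and 14.1 CPM in controls and 33.8, 36.2 and 26.2 CPM in Tpp1-/- mice. In Cb the control mice held 4.13, 2.89 and 2.37 CPM and the Tpp1-/- mice 24.0, 13.6 and 19.0 CPM. No group overlapped with its control, and the Tpp1-/- mice of Cb overlapped with the controls of F/M. The fold change was 2.11 in F/M (95% interval 1.57 to 2.85, adjusted p = 0.0363) and 6.03 in Cb (4.28 to 8.48, adjusted p = 3.05e-05). The F/M call was lost when any of 5 F/M libraries was left out, with adjusted p of 0.199 and 0.189 without Tpp1-/- replicate 1 or 2 and 0.185, 0.164 and 0.177 without control replicate 1, 2 or 3, while the log2 fold change stayed between 0.98 and 1.2 over all alternatives. Serpina3n has close paralogs in the same cluster, and 1 of the 13 genes on the list of Serpina3 paralogs and target proteases passed the filter on low counts, with the others at too few reads to be tested. Lcn2 (ENSMUSG00000026822, chromosome 2, 32384633 to 32388252, minus strand), the iron-binding protein lipocalin 2 and the other secreted member, was near the limit of detection. In Cb its read counts were 17, 21 and 16 in controls and 34, 9 and 16 in Tpp1-/- mice, and in F/M 12, 11 and 3 against 7, 8 and 4. Both pairs of groups overlapped, and the interval of the log2 fold change, -0.96 to 0.99 in Cb and -1.82 to 0.78 in F/M, was too wide to show a difference of 1.5-fold at this depth.

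**Figure D2:**
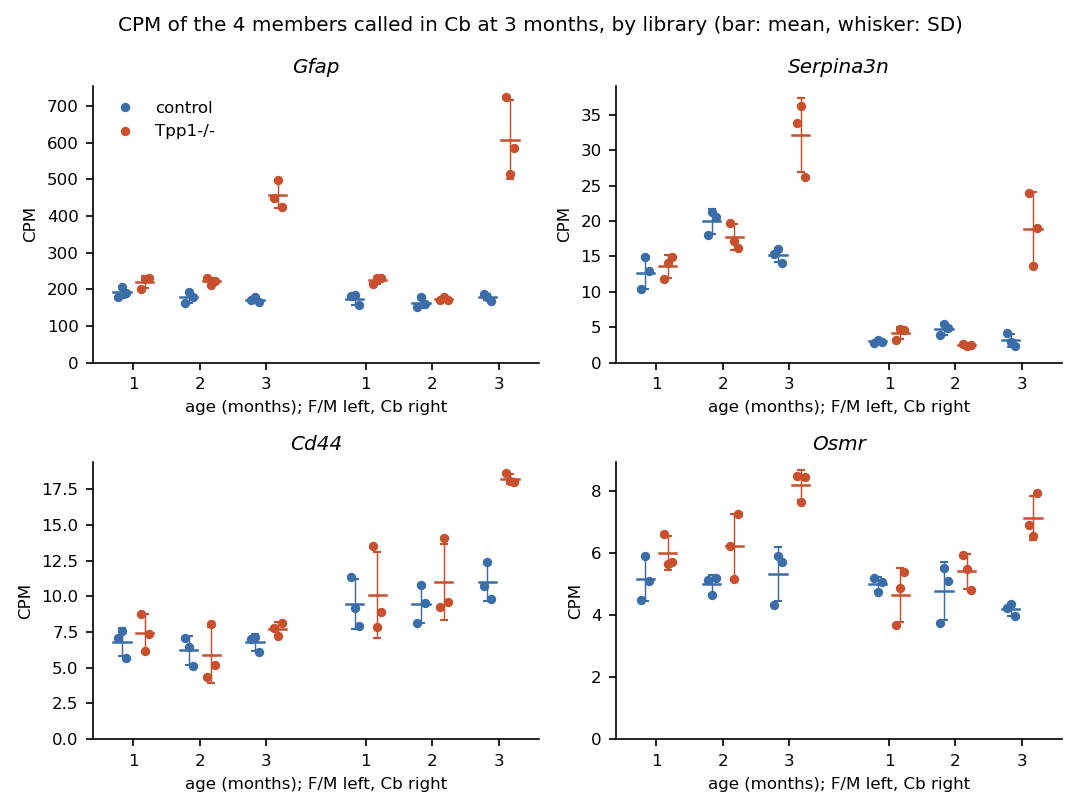
CPM of Gfap, Serpina3n, Cd44 and Osmr in each of the 36 libraries, by age, with F/M to the left and Cb to the right (points: mice, bar: mean, whisker: SD of 3 mice). At 3 months all Tpp1-/- mice lie above all controls for each of the 4 genes in Cb, from 514 to 726 CPM of Gfap against 169 to 188.

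Of the receptors at the cell surface, Cd44 and Osmr were called in Cb. Cd44 (ENSMUSG00000005087, chromosome 2, 102811141 to 102901665, minus strand) stood at 10.7, 12.4 and 9.84 CPM in Cb controls and 18.6, 18.1 and 18.0 CPM in Cb of Tpp1-/- mice. The Tpp1-/- mice were nearly alike and all above the controls, with a fold change of 1.66 (95% interval 1.40 to 1.97, adjusted p = 0.00647). Its F/M levels were 7.03, 7.15 and 6.11 CPM against 7.81, 7.25 and 8.13 CPM, a log2 fold change of 0.19 (-0.07 to 0.46) that did not pass. Osmr (ENSMUSG00000022146, chromosome 15, 6813577 to 6874969, minus strand), the subunit that binds oncostatin M together with the shared chain gp130, had 4.22, 4.36 and 3.96 CPM in Cb controls and 6.90, 6.56 and 7.93 CPM in Tpp1-/- mice. All Tpp1-/- mice were again higher, with a fold change of 1.70 (1.37 to 2.12, adjusted p = 0.0239). The F/M levels of Osmr were 4.33, 5.91 and 5.72 CPM against 8.49, 7.63 and 8.44 CPM, also without overlap, at a fold change of 1.54 (1.24 to 1.92) with an adjusted p of 0.136 that missed the threshold. Osmr in Cb was not called without Tpp1-/- replicate 3 (adjusted p = 0.121), with a replicate block within region (0.116) or in a fit of the 6 Cb libraries alone (0.289), which also lost Cd44 (0.164), and Osmr in F/M was called without Tpp1-/- replicate 1 of Cb (0.0486).

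S1pr3 (ENSMUSG00000067586, chromosome 13, 51408639 to 51422797, plus strand) had 3.16, 2.94 and 4.87 CPM in Cb controls and 5.86, 5.63 and 6.10 CPM in Cb of Tpp1-/- mice, where control replicate 3 was the highest control and still lay below every Tpp1-/- mouse. Its log2 fold change in Cb was 0.68 ± 0.18 (SE), with an unadjusted p of 0.00179 from edgeR and an adjusted p of 0.157. Without control replicate 3 of Cb the log2 fold change was 0.94 and was called (adjusted p = 0.00638). In F/M the levels were 8.36, 8.95 and 10.2 CPM against 8.83, 8.22 and 9.0 CPM, which overlapped, with a log2 fold change of -0.08 (-0.43 to 0.27). DESeq2 called S1pr3 in Cb (adjusted p = 0.0377), and it also called Aspg in Cb (0.0965) and Osmr in F/M (0.0539).

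Aspg (ENSMUSG00000037686, chromosome 12, 112106679 to 112127559, plus strand) differed by a like amount in both regions without being called in either. Its F/M levels were 1.94, 1.43 and 1.77 CPM in controls and 3.59, 2.76 and 3.39 CPM in Tpp1-/- mice, a fold change of 1.88 (1.32 to 2.70, adjusted p = 0.229). In Cb they were 1.76, 2.80 and 2.37 CPM and 4.59, 3.01 and 4.69 CPM, a fold change of 1.77 (1.27 to 2.46, adjusted p = 0.194). Neither pair of groups overlapped, and Cb was called without Tpp1-/- replicate 2 (adjusted p = 0.0617). Steap4 (ENSMUSG00000012428, chromosome 5, 7960457 to 7982213, plus strand), which reduces iron and copper at membranes, rested on 7, 7 and 9 reads in Cb controls and 30, 18 and 17 reads in Tpp1-/- mice. The groups did not overlap, and the log2 fold change was 1.38 ± 0.34 (adjusted p = 0.125). In F/M the Steap4 counts were 11, 7 and 15 against 10, 15 and 10, with a log2 fold change of 0.03 and an interval of -0.72 to 0.79. Hspb1 (ENSMUSG00000004951, chromosome 5, 135887919 to 135889563, plus strand), a small heat shock protein, overlapped between the groups in both regions, at 1.21, 1.10 and 1.87 against 2.79, 1.19 and 1.5 CPM in Cb and 0.968, 1.37 and 0.838 against 1.6, 0.703 and 1.44 CPM in F/M. Its log2 fold changes were 0.40 (-0.38 to 1.17) and 0.26 (-0.61 to 1.13).

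**Figure D3:**
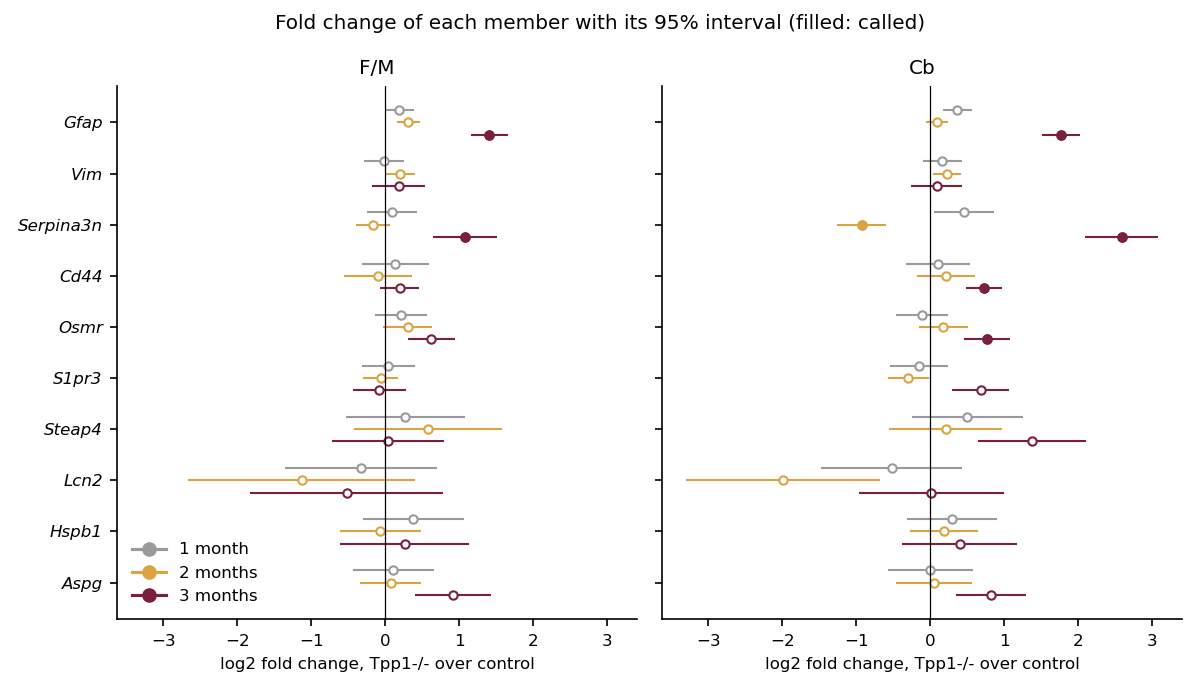
Log2 fold change of Tpp1-/- over control with its 95% interval for each member at 1, 2 and 3 months, F/M to the left and Cb to the right, with filled points where a difference was called. Gfap and Serpina3n are filled at 3 months in both regions, Cd44 and Osmr in Cb, and Serpina3n of Cb at 2 months is filled to the left of 0.

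**Figure D4:**
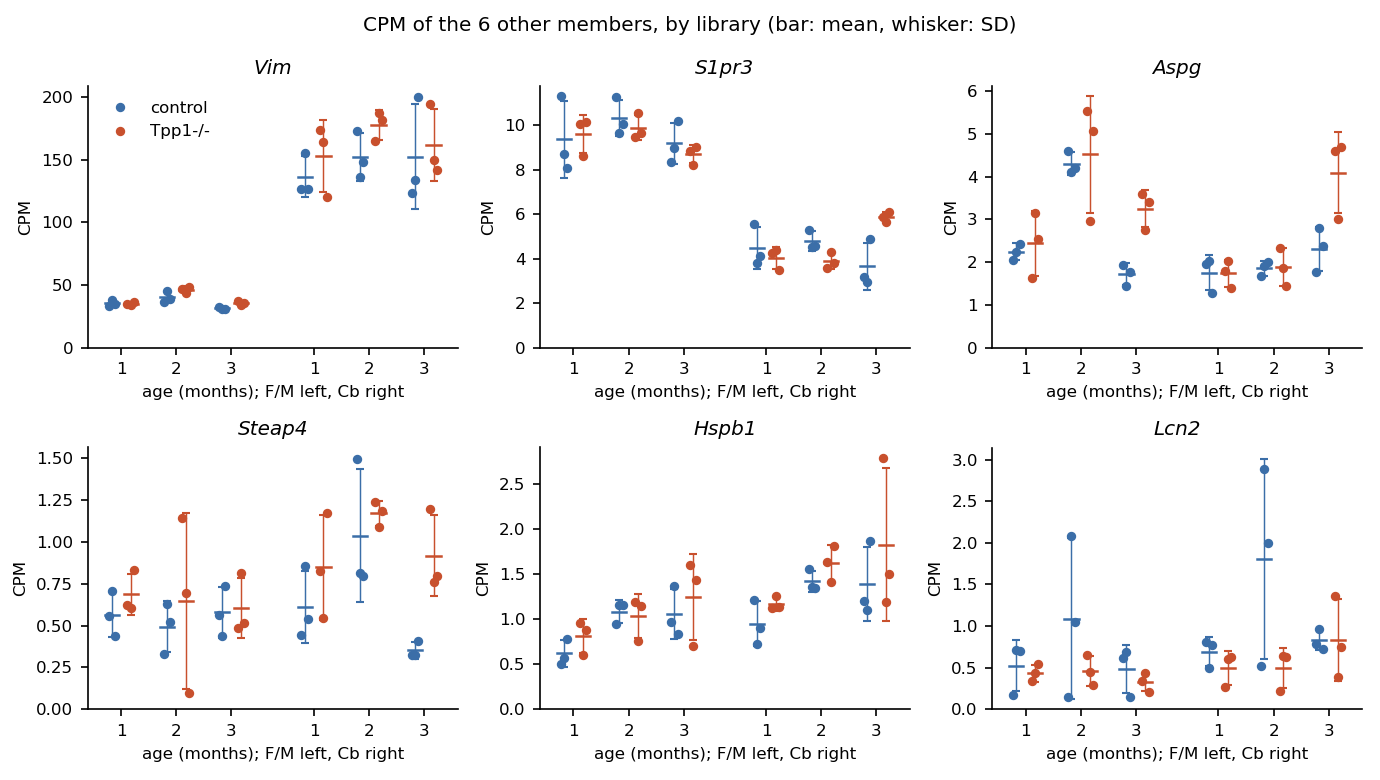
CPM of Vim, S1pr3, Aspg, Steap4, Hspb1 and Lcn2 in each of the 36 libraries, by age, with F/M to the left and Cb to the right (points: mice, bar: mean, whisker: SD of 3 mice). At 3 months S1pr3, Aspg and Steap4 of Cb lie above their controls without overlap, and Vim, Hspb1 and Lcn2 of Cb overlap.

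These calls of 3 months were set beside those without the Cb libraries that stood apart. In replicate order, choroid plexus markers summed to 925, 972 and 1492 CPM in Cb controls and 1691, 793 and 817 CPM in Tpp1-/- mice, and 4 neutrophil genes to 4.59, 5.09 and 5.92 against 16.99, 1.86 and 3.00 CPM. Tpp1-/- replicate 1 also held the most Gfap and Serpina3n of its group, and control replicate 3 the least of both in its own. Without Tpp1-/- replicate 1 the log2 fold changes in Cb were 1.62 for Gfap, 2.38 for Serpina3n, 0.72 for Cd44 and 0.79 for Osmr, and without control replicate 3 they were 1.73, 2.43, 0.66 and 0.73, with all 4 called in both fits. Without both, a choice made after seeing the data that leaves 2 mice against 2, they were 1.58, 2.21, 0.64 and 0.75 and were again called. That fit called 7 members in Cb, adding S1pr3 (0.94, adjusted p = 0.000270), Aspg (0.74, 0.0409) and Steap4 (1.26, 0.0680), and 4 in F/M, adding Osmr (0.63, 0.00321) and Aspg (0.92, 0.0119), while 677 genes of all 17428 tested were called in Cb and 381 in F/M. The part of choroid plexus and neutrophils in the members' values was not tested.

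The promoters of the 4 members called in Cb at 3 months are shown because these genes rose together. Each sequence runs 5′ to 3′ from 250 bases before to 10 bases after the gene's start in RefSeq (GRCm38.p6), with matches to 4 motifs in capitals.
Gfap, chr11:102897191-102897450, minus strand: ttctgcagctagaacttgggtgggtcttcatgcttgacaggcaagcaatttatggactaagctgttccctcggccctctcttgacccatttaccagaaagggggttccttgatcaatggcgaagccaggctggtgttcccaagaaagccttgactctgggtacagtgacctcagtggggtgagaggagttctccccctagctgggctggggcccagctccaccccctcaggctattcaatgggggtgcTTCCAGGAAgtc
Serpina3n, chr12:104406458-104406717, plus strand: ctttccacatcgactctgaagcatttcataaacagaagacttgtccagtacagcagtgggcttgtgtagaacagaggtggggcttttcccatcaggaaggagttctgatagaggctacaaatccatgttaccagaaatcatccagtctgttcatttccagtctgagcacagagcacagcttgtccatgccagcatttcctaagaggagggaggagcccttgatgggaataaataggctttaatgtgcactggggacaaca
Cd44, chr2:102901656-102901915, minus strand: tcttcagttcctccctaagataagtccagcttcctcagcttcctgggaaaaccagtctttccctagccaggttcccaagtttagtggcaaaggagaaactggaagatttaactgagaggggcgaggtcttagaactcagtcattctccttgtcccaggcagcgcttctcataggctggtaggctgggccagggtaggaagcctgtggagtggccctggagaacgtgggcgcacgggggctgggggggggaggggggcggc
Osmr, chr15:6874304-6874563, minus strand: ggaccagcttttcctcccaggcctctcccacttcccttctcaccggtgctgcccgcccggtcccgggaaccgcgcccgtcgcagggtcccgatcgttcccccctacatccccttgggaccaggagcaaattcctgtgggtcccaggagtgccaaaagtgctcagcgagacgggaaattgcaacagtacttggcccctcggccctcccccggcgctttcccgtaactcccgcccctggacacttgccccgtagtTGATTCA
The motifs were TTCNNNGAA, the spaced palindrome that STAT factors bind, GAANNTTC, a pair of heat shock elements, TGANTCA, the AP-1 site, and TATAAA, each on both strands and searched from 250 bases before to 50 after the start. Motifs did not overlap each other in the members. A window was found for all 10 members, and for several of them the RefSeq and GENCODE starts differ. Gfap held 1 STAT match, which spans the start, and Osmr 1 AP-1 match just after the start, while the windows of Serpina3n and Cd44 held none of the 4. Of the other members, Steap4 held a STAT and a TATA match, Vim a TATA match and Hspb1 a pair of heat shock matches, and S1pr3, Lcn2 and Aspg held none. Over all 32851 windows, 8.30% held the STAT motif, 7.86% the heat shock pair, 7.81% the AP-1 motif and 13.6% the TATA motif. A match in this window is a description of the letters and does not show binding.

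Whether the Tpp1-/- effect of 3 months differed between Cb and F/M was tested as the difference between the log2 fold changes. It was called for none of the members and for 0.00581% of all genes, although 5 members, Gfap, Serpina3n, Cd44, S1pr3 and Steap4, had an unadjusted p under 0.05, as had 3.51% of all genes, all larger in Cb. The difference was largest for Serpina3n, at 1.51 ± 0.30 (SE, 95% interval 0.86 to 2.16, adjusted p = 0.402). For Gfap it was 0.36 ± 0.16 (0.00373 to 0.71), and for Aspg, whose effects were alike, -0.09 (-0.79 to 0.61). The Serpina3n difference was called by DESeq2 (adjusted p = 0.00303), without the filter on low counts (2.14e-08) and with the replicate block within region (0.0842), but not by limma-voom (0.729), and S1pr3 was called without control replicate 3 of Cb (0.0841). Without that control and Tpp1-/- replicate 1 of Cb, differences were called for Serpina3n (1.12, adjusted p = 0.00388) and S1pr3 (1.02, 0.00240), and for 1396 genes of all 17428.

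Marker genes of other cells moved with these results. In bulk tissue, more cells of a type and more RNA per cell cannot be told apart. The 14 astrocyte markers that are not part of the reactive set were called in neither region at 3 months, with 2 of 14 at an unadjusted p under 0.05 in Cb and 1 in F/M by edgeR, and their summed level was 8603 to 8928 CPM in Cb controls and 8679 to 9139.9 CPM in Tpp1-/- mice. Of the 10 microglia markers, 3 were called higher in Cb, among them Trem2 (log2 fold change 1.82), a lipid receptor, and Aif1 (1.32), and none in F/M. The microglia sum was 129 to 159 CPM in Cb controls and 212 to 272 CPM in Tpp1-/- mice, and 391 to 412 against 432 to 481 CPM in F/M, with no marker at or near 0. The part of microglia in the members' values was not tested. In F/M of 3 months the 12 midbrain and thalamus markers summed to 393 to 402 CPM in controls and 289 to 331 CPM in Tpp1-/- mice, with 1 called lower, and their part was not tested either. The same sum overlapped in Cb, at 215 to 249 against 207 to 251 CPM. None of the 6 endothelium, 6 mural cell or 7 meningeal fibroblast markers was called in either region at 3 months.

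The other genes of reactivity were described from lists of known genes. Of the 3 further pan-reactive genes, Cxcl10, a chemokine induced by interferon, was called higher in both regions, with log2 fold changes of 3.55 in F/M and 2.67 in Cb, and Timp1, an inhibitor of metalloproteases, in Cb (2.31). Of the 13 genes tested that are often called A1, or neuroinflammatory, C4b, complement component 4, was called in both regions (1.55 and 1.91), and C3 (1.95) and Fkbp5 (0.73) in Cb. C4b went from 10.9 ± 1.47 to 40.7 ± 3.15 CPM in Cb and from 18.3 ± 0.700 to 53.7 ± 3.96 CPM in F/M. Of the 10 A2 genes tested at 3 months, only Cd14 was called, in Cb (1.54). The medians of the log2 fold changes in Cb were 0.32 over the A1 genes and 0.09 over the A2 genes, and 0.46 and 0.14 in F/M. The difference between A1 and A2 genes was not tested. Of the signals known to induce the A1 state, the complement genes C1qa, C1qb and C1qc were called in Cb, at 1.96, 1.62 and 1.76, and Il1a, Il1b and Tnf were too low to be tested at 3 months.

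Few genes that work with the members were called. Of the 13 receptors and JAK-STAT genes of the IL-6 family, 0 were called in Cb by edgeR, with 1 at an unadjusted p under 0.05. Stat3 stood at 46.9 ± 3.15 CPM in Cb controls and 49.9 ± 3.98 CPM in Tpp1-/- mice, and Il6st, which encodes gp130, at 165 ± 22.7 and 159 ± 31.6 CPM. None of the 5 IL-6 family ligands tested was called in either region. Osm, the ligand of Osmr, had 0 reads in the Cb controls of 3 months and 1 to 6 reads per library in Cb of Tpp1-/- mice, so no fold change is given. None of the 9 further intermediate filament genes, the 11 ligands and partners of CD44, the 8 receptors and enzymes of sphingosine 1-phosphate, the 7 genes of small heat shock proteins and HSF1 or the 4 genes of asparagine metabolism that could be tested was called at 3 months. Of the 11 iron genes that work with STEAP proteins and lipocalin, Hmox1, heme oxygenase 1, was called higher in F/M (0.99) and Cb (0.76).

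At 2 months, before motor signs, no member was called higher. In F/M none of the 10 was called, against 0.737% of all genes, and 1 had an unadjusted p under 0.05 in edgeR, as had 16.9% of all genes. Gfap came nearest, at 163, 193 and 178 CPM in controls and 230.3, 211 and 223 CPM in Tpp1-/- mice. The groups did not overlap, which held for 18.3% of all genes, and the log2 fold change of 0.31 ± 0.07 (SE, adjusted p = 0.0468) was below the fold minimum. All 14 astrocyte markers had a log2 fold change above 0 in this comparison and none was called, and their sum was 6997 to 7981 CPM in controls and 8404 to 10497 CPM in Tpp1-/- mice, beside the higher Gfap. Choroid plexus markers, with 4 of 7 called higher, and midbrain and thalamus markers, with 1 of 12, moved as well. The cerebellum markers Barhl1 (1.24, adjusted p = 0.0594) and En2 (1.10, 0.0280), 2 of 8, and the meningeal marker Igf2 (1.11, 0.0699), 1 of 7, were called higher too, and the part of these tissues was not tested. In Cb Gfap stood at 151, 178 and 159 CPM against 169.5, 178 and 172 CPM, which overlapped, with a log2 fold change of 0.09 (-0.06 to 0.25). Of the lists of reactivity genes and of partners of the members, 2 genes were called within a region at 2 months, both lower. They were the A2 gene Ptgs2, cyclooxygenase 2, in F/M (-0.67, adjusted p = 0.0312) and Prph, the filament protein peripherin, in Cb (-2.30, 0.00869). In the difference between the regions the iron gene Fth1 was called (-0.49, adjusted p = 0.0941), where 2.97% of all genes were called.

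In Cb of 2 months Serpina3n was the one member called, and it was lower in Tpp1-/- mice, against 2.05% of all genes called and 1.80% called lower. Controls held 3.85, 5.52 and 4.94 CPM and Tpp1-/- mice 2.69, 2.36 and 2.5 CPM, without overlap, and the log2 fold change was -0.93 ± 0.16 (SE, adjusted p = 0.00156). In F/M of the same age the groups overlapped, at 18.0, 21.3 and 20.5 against 19.7, 17.2 and 16.2 CPM, with a log2 fold change of -0.16 (-0.39 to 0.07). The difference between the regions was -0.76 ± 0.19 (adjusted p = 0.0466), where 2.97% of all genes were called. The astrocyte markers Gja1 (log2 difference -0.39, adjusted p = 0.0783) and Fgfr3 (-0.45, 0.0783), 2 of 14, and the ependyma marker Foxj1 (-0.69, 0.0994) were called in the same direction as Serpina3n in this difference. So were the cerebellum markers Barhl1 (-1.47) and En2 (-1.18), the forebrain markers Drd2 (-2.96) and Bcl11b (-1.64), and midbrain and thalamus markers such as Tcf7l2 (-3.50). The forebrain marker Neurod6 was called the other way (0.64, adjusted p = 0.00739). The part of these cells and tissues was not tested. The same Cb libraries were low in genes of neighbouring brain regions. Of 12 midbrain and thalamus markers 5 were called lower, among them Shox2 (-5.55) and Tcf7l2 (-3.00), and their sum was 243 to 278 CPM in controls and 154 to 188 CPM in Tpp1-/- mice. Slc6a3 was at or under 3 counts on average there. Of 8 forebrain markers 2, Drd2 (-2.80, adjusted p = 1.52e-07) and Bcl11b (-1.64, 4.58e-06), were called lower, with a sum of 18.0 to 19.6 against 11.1 to 12.9 CPM. Of 7 choroid plexus markers 3 were called higher, and their sum was 941 to 1237 against 1542 to 1717 CPM. With the mean level of the midbrain and thalamus markers as a covariate, the log2 fold change of Serpina3n in Cb was 0.06 (adjusted p = 0.992) and the count of all genes called there fell from 353 to 27. With the covariate no member was called in either region, the sign of Cd44 turned in both regions (to -0.86 in Cb and 0.21 in F/M), and Aspg and S1pr3 turned in F/M (to -0.16 and 0.15). The score and the genotype separate the same 6 libraries, so their parts in the Serpina3n value cannot be told apart. The region difference was not called without control replicate 2 or 3 or Tpp1-/- replicate 2 of Cb (adjusted p = 0.197, 0.124 and 0.141) or Tpp1-/- replicate 1 of F/M (0.139), nor with the replicate block within region (0.134).

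Lcn2, which neutrophils also make in quantity, was low in the same Cb libraries, at 9, 64 and 40 reads in controls and 6, 14 and 10 reads in Tpp1-/- mice, or 0.518, 2.89 and 2.00 against 0.218, 0.636 and 0.625 CPM. Control replicate 1 overlapped with the Tpp1-/- mice, and the log2 fold change was -1.99 ± 0.63 (adjusted p = 0.146), which did not pass. It passed without control replicate 1 of Cb, or without control replicate 1 or 2 of F/M (adjusted p = 0.0273, 0.0216 and 0.0488), while Lcn2 of F/M, which overlapped between the groups at a log2 fold change of -1.13 (adjusted p = 0.462) and ranged from -1.67 to -0.22 with single libraries left out, passed without control replicate 1 of F/M (log2 fold change -1.67, adjusted p = 0.0793). The neutrophil genes S100a8, S100a9 and Ngp were called lower in Cb, at -1.54, -1.46 and -1.45 on the log2 scale, and together with Camp they summed to 8.11, 12.5 and 8.84 CPM in the controls in replicate order and 2.18, 5.5 and 3.12 CPM in the Tpp1-/- mice. Their part in the Lcn2 value was not tested. With the midbrain and thalamus covariate the log2 fold change of Lcn2 in Cb turned to 3.75 (adjusted p = 0.846). S1pr3 of Cb was 5.29, 4.52 and 4.54 CPM in controls and 3.57, 4.31 and 3.81 CPM in Tpp1-/- mice, without overlap, where 18.1% of all genes did not overlap, and its log2 fold change of -0.29 ± 0.13 had an adjusted p of 0.472. The other members of Cb, Vim, Cd44, Osmr, Steap4, Hspb1 and Aspg, overlapped between the groups, with log2 fold changes of 0.05 (Aspg) to 0.22 (Vim).

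**Figure D5:**
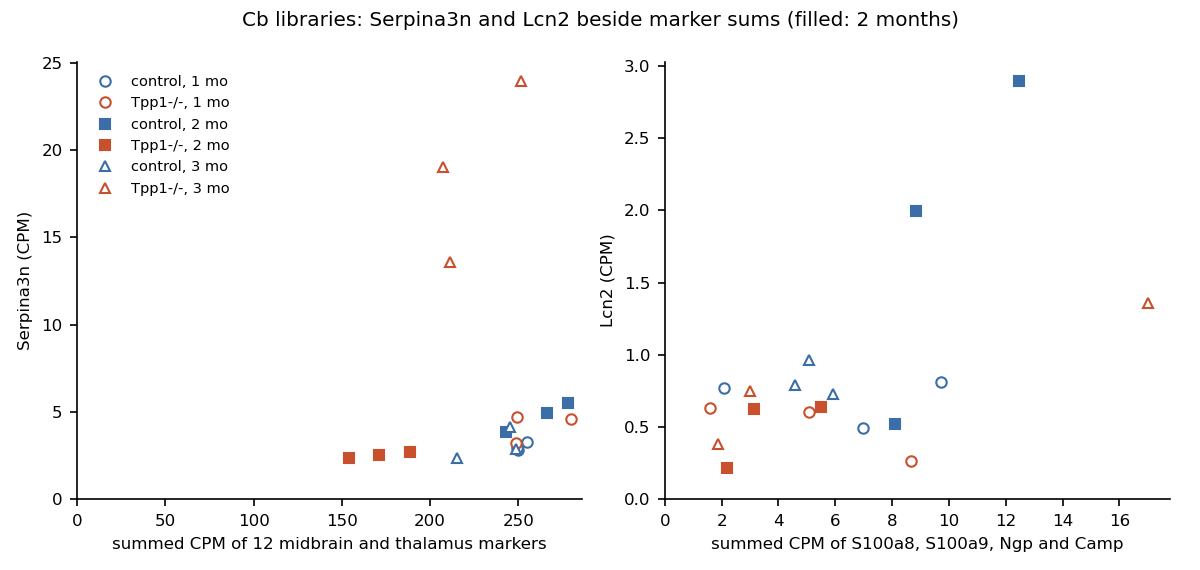
Cb libraries of the 3 ages, 1 point per mouse, with the genotype in colour and filled squares for 2 months. Left, CPM of Serpina3n against the summed CPM of 12 midbrain and thalamus markers, where the Tpp1-/- mice of 2 months are lowest on the marker axis, at 154 to 188 CPM. Right, CPM of Lcn2 against the summed CPM of 4 neutrophil genes, where 2 controls of 2 months stand highest in Lcn2.

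At 1 month no member was called in F/M or in Cb, where 0.0112% of all genes were called in each. By edgeR's unadjusted p under 0.05 there were 0 members in F/M and 2 in Cb, Gfap and Serpina3n, beside 1.89% and 7.66% of all genes. Gfap of Cb was 181, 185 and 156 CPM in controls and 213, 229.6 and 231 CPM in Tpp1-/- mice, and control replicate 3, the lowest, was the Tpp1+/- mouse. The groups did not overlap, which held for 7.97% of all genes, and the log2 fold change was 0.37 ± 0.09 (SE, adjusted p = 0.630). In F/M Gfap was 178, 207 and 191 CPM against 199.7, 228 and 229.7 CPM, with overlap and a log2 fold change of 0.19 (-0.00163 to 0.38). Serpina3n of Cb was 2.84, 3.24 and 2.95 CPM against 3.19, 4.71 and 4.56 CPM, and Tpp1-/- replicate 1 lay among the controls (log2 fold change 0.45 ± 0.19, adjusted p = 0.630). The median log2 fold change of the 10 members was 0.12 in F/M, beside -0.00379 over all genes, and 0.13 in Cb, beside 0.00614. Among the other 8 members it ranged from -0.52 (Lcn2) to 0.50 (Steap4) in Cb, with every pair of groups overlapping. A difference between the regions was called for no member and for no gene at 1 month, and by edgeR's unadjusted p under 0.05 for none of the members, beside 1.94% of all genes.

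Differences between ages were tested in one model of all 36 libraries as the change of the Tpp1-/- effect. From 2 to 3 months the effect on Gfap rose in both regions, by 1.10 ± 0.14 on the log2 scale in F/M and 1.67 ± 0.14 in Cb (SE; adjusted p = 2.94e-05 and 4.38e-10). The effect on Serpina3n rose by 1.26 ± 0.24 in F/M and 3.52 ± 0.30 in Cb (adjusted p = 0.0159 and 7.91e-10), and the Cb value includes the low level of 2 months described above. S1pr3 was the third member called in Cb, at 0.98 ± 0.23 (adjusted p = 0.0217). Thus 2 members in F/M and 3 in Cb were called, against 0.393% and 1.44% of the 18322 genes tested. From 1 to 3 months, a contrast that does not use the libraries of 2 months, Gfap rose by 1.23 ± 0.14 in F/M and 1.40 ± 0.14 in Cb (adjusted p = 5.38e-06 and 2.2e-07). Serpina3n rose by 2.14 ± 0.29 in Cb (adjusted p = 8.51e-05), while its value of 1.00 ± 0.24 in F/M did not pass (adjusted p = 0.142). Osmr rose by 0.89 ± 0.21 in Cb (adjusted p = 0.0679). These were 1 member in F/M and 3 in Cb, against 0.153% and 0.458% of all genes. Both sets share the libraries of 3 months. From 1 to 3 months the members' median change was 0.13 (F/M) and 0.83 (Cb), beside 0.00631 and -0.00245 over all genes.

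Single libraries or the replicate block decided some of these calls. Osmr from 1 to 3 months in Cb was not called without any one of 7 Cb libraries, with adjusted p of 0.144 and 0.101 without Tpp1-/- replicate 1 or 2 of 1 month, 0.133 and 0.143 without control replicate 1 or 3 of 1 month, 0.223 without Tpp1-/- replicate 3 of 3 months, and 0.114 and 0.137 without control replicate 1 or 3 of 3 months. A block for the replicate number, set within region, ended the call as well (0.198). S1pr3 was called in this comparison without Tpp1-/- replicate 1 or control replicate 3 of 3 months (0.0545 and 0.0147). Serpina3n of F/M from 1 to 3 months was called without Tpp1-/- replicate 3 of 3 months or control replicate 1 of 1 month in F/M (0.0680 and 0.0941), and without Tpp1-/- replicate 1 of 1 month or replicate 1 or 2 of 3 months in Cb (0.0977, 0.0462 and 0.0626), as well as with the block (0.0493).

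Likeness of pattern was measured by Pearson's r over the 36 libraries, of log2 CPM after subtraction of the mean of the age- and region-matched controls. The points share their libraries and controls, and the Tpp1-/- libraries of 3 months lie farthest out for Gfap and Serpina3n of Cb, so r is a description. Among the members Gfap and Serpina3n were most alike (r = 0.886), followed by Gfap with Osmr (0.797) and with Aspg (0.782). Lcn2 was unlike all others, with r of -0.196 to 0.297, at counts of 3 to 64 reads per library. Over 16713 genes, those nearest to Gfap were C4b (r = 0.970), Cd52 (0.964), Ctss (0.963), Lyz2 (0.954) and Lag3 (0.944). Nearest to Serpina3n were Fcrls (0.915), C1qb (0.914), Inpp5d (0.912), Laptm5 (0.911) and C1qc (0.904). Cd52, the cysteine protease gene Ctss, the lysozyme gene Lyz2, Fcrls, Inpp5d, Laptm5 and the C1q genes are best known from microglia and other myeloid cells.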

How the data were processed

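RNA-seq libraries were made from total RNA of F/M and Cb with a stranded mRNA kit. The authors deposited raw counts per gene for each library. Reads were aligned to mm10 with STAR 2.5.2b, per the submitters' processing notes. Per the file headers, the counts came from featureCounts 1.6.3 with GENCODE mouse release 21 and strand setting 1 at 1 month, featureCounts 1.6.2 with release 16 and strand setting 2 at 2 months, and featureCounts 1.6.2 with release 18 and strand setting 1 at 3 months. Although those headers give the option for fractional counts of multi-mapped reads, all deposited counts were whole numbers. Age is thus confounded with annotation and strand setting.

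The 12 libraries of each age were fitted together in edgeR 4.0.16 (R 4.3.3) as 4 groups, after filterByExpr and TMM scaling, with the quasi-likelihood test and Benjamini-Hochberg adjustment over all genes tested. Differences between ages came from 1 model of 12 groups, and region and age differences were called at an adjusted p under 0.1 with no fold minimum. The labels do not say whether F/M and Cb of the same replicate number came from one mouse, and libraries of the regions were treated as independent samples. Errors of log2 fold changes are SE, and intervals are 95%. At 10609896 to 29942380 reads per library, 1 read was worth less than 0.1 CPM. Genes at or under 3 counts in every library of a group were treated as at the floor in that group. Counting error alone does not cover differences between mice. Limma 3.58.1 (voom) and DESeq2 1.42.0 served as alternatives, together with other scalings, filters, thresholds, a sex covariate, a replicate block, a midbrain score covariate, each library left out and, chosen after seeing the data, both Cb libraries of 3 months that stood apart left out. The procedure was tested on simulated data. Figures were drawn in Python 3.11.15 with matplotlib 3.10.9.

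Named were the 10 members throughout, of each other list the genes called in the comparison described (at most 4), and the 5 genes most correlated with Gfap and with Serpina3n. Some genes of these lists are not reported here. The members and the lists were chosen with earlier results of these data known. At 3 months the lists of border macrophages, ependyma, oligodendrocytes, blood and neutrophils, forebrain and cerebellum had 0 genes called higher in either region, and 1 forebrain gene was called lower in Cb.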

Additional observations from a re-analysis of the deposited data

Results flagged for a closer look

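The Tpp1-/- effect of some members differed between ages or regions by the test of the difference itself, in log2 units with edgeR's adjusted p. The effect on Gfap was larger at 3 months than at 1 month by 1.40 ± 0.14 in Cb (adjusted p = 2.2e-07) and by 1.23 ± 0.14 in F/M (adjusted p = 5.38e-06). Against 2 months it was larger by 1.67 ± 0.14 in Cb (adjusted p = 4.38e-10) and by 1.10 ± 0.14 in F/M (adjusted p = 2.94e-05). These 4 differences kept their direction and their call in all alternatives run.

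The effect on Serpina3n in Cb was larger at 3 months than at 1 month by 2.14 ± 0.29 (adjusted p = 8.51e-05) and than at 2 months by 3.52 ± 0.30 (adjusted p = 7.91e-10), and in F/M than at 2 months by 1.26 ± 0.24 (adjusted p = 0.0159). At 2 months the effect on Serpina3n was lower in Cb than in F/M by a log2 difference of -0.76 ± 0.19 (adjusted p = 0.0466), a comparison in which the Cb libraries also differed in midbrain and thalamus genes. That call ended when any of 4 libraries was left out (adjusted p from 0.124 to 0.197), and also with the replicate block within region (0.134).

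S1pr3 in Cb had a larger effect at 3 than at 2 months, by 0.98 ± 0.23 (adjusted p = 0.0217), and Osmr in Cb a larger effect at 3 than at 1 month, by 0.89 ± 0.21 (adjusted p = 0.0679). The Osmr call ended when any of 7 libraries was left out, and also with the replicate block within region (adjusted p = 0.198).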

How the results depend on the processing

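The counts of members called depended on the settings as follows. In Cb of 2 months, in place of 1, the midbrain score covariate gave 0, no filter on low counts 2 and a fit of the 6 libraries compared 2. With that covariate Serpina3n turned from -0.93 to 0.0602 and Lcn2 from -1.99 to 3.75 on the log2 scale. Over the 21 other fits of 2 months the log2 fold changes in Cb reached 0.66 for Gfap, 1.14 for Hspb1, 0.80 for Aspg and 0.76 for Osmr. That of S1pr3 in Cb reached -1.02, and that of Gfap in F/M fell to 0.15. None of these 5 members was called in Cb in those fits. In Cb of 3 months, in place of 4, the 6 libraries gave 2, the block 3, the sex covariate 5 (S1pr3 gained), DESeq2 and no filter 6 each (S1pr3 and Aspg gained), and leaving out both libraries that stood apart, an alternative added after the data were seen, 7. In F/M of 3 months, in place of 2, the 6 libraries gave 4, DESeq2 3 (Osmr gained), no filter 3 (Aspg gained) and leaving out both libraries 4. In F/M of 2 months, in place of 0, no fold minimum gave 1 (Gfap) and no filter 1 (Lcn2). For the region difference of 3 months, in place of 0, DESeq2, no filter and the block each gave 1 and leaving out both libraries 2. For the F/M difference from 1 to 3 months, in place of 1, these 4 settings each gave 2. For the Cb difference from 1 to 3 months, in place of 3, DESeq2 and leaving out both libraries gave 4 (S1pr3 gained) and the block and an adjusted p under 0.05 gave 2, and from 2 to 3 months no filter gave 4 in place of 3 (Lcn2 gained). Between control regions, library totals gave 4 in place of 3 at 1 month (Hspb1), no filter and the block 7 in place of 6 at 2 months (Lcn2), and leaving out both libraries 5 in place of 4 at 3 months (Lcn2). No fold minimum there gave 4 at 1 month (Cd44 gained) and 5 at 3 months (Osmr gained), beside 59.4% and 57.8% of all genes. Calls made by all 3 tools gave the same counts as edgeR. The causes were not tested.

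With each library left out in turn, the members called ranged from 0 to 0 in both regions at 1 month, from 1 to 2 in Cb and 0 to 1 in F/M at 2 months, and from 3 to 5 in Cb and 1 to 3 in F/M at 3 months. The control comparison of regions gave 3 to 4, 5 to 7 and 4 to 5 at 1, 2 and 3 months, and the region difference 0 to 0, 0 to 1 and 0 to 1. The age differences gave 2 to 4 (Cb, 1 to 3 months), 3 to 3 (Cb, 2 to 3 months), 1 to 2 (F/M, 1 to 3 months) and 2 to 2 (F/M, 2 to 3 months).

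The labels share replicate numbers between groups, but do not say that a number marks a litter or batch. Of 12 sets of same-numbered pairs, 1 had every correlation of deviations over 0.1, F/M and Cb of the controls at 1 month, and correlations ran from -0.0855 to 0.229. With the replicate block within region, 0 members in place of 1 had a region difference at 2 months (Serpina3n, adjusted p = 0.134), 1 in place of 0 at 3 months (Serpina3n, adjusted p = 0.0842), and Osmr was called neither in Cb at 3 months (adjusted p = 0.116) nor for its age difference from 1 to 3 months in Cb (0.198). Serpina3n gained its F/M difference from 1 to 3 months (0.0493).

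Depth limits the lowest members. Lcn2 had 3 to 64 reads per library, and Steap4 of Cb at 3 months had 7 to 30. In F/M of Tpp1-/- mice at 2 months Steap4 had 1 to 23 reads.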
